A study of Rattus norvegicus with 9 samples.

Results

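The 10 genes described here encode the interleukin-1 ligands and their inhibitor (Il1a, Il1b, Il1rn), the inflammasome sensor Nlrp3, the prostaglandin synthase Ptgs2, the interleukin-6 family cytokines Il6, Il11, Lif and Osm, and the cytokine Tnf. They were taken by symbol from the protein-coding rows of the deposited count table and are 10 of its 35360 genes. RNA came from the middle of femoral fractures in rats, in 9 libraries. In 3 libraries the fracture had received a gel carrying the Mg-ALN material (Mg-ALN@Gel in the titles), a metal-organic framework of magnesium and a bisphosphonate that is named ALN. In 3 others it had received the gel with ALN (ALN+Gel), and in the last 3 the gel alone (Gel). All groups thus share the fracture and the gel, and no group with magnesium but without ALN was analysed here. Strain, sex, age, time after fracture, and whether replicates are separate animals are not given in the labels used here, so p-values reflect the spread among these libraries alone, part of which may be technical. The series was designed around bone fibrosis under ALN and its counteraction by magnesium, and its design text does not name any of the 10 genes.

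Interleukin-1 is released by damaged and myeloid cells early after a fracture and acts through a receptor that activates NF-kB. Its effects are limited by a secreted antagonist and by a decoy receptor, and the beta ligand is cut to its mature form through an inflammasome. Interleukin-6, interleukin-11, leukaemia inhibitory factor and oncostatin M all signal through the shared receptor subunit gp130 to STAT3, and members of this family act on osteoblasts and osteoclasts. Prostaglandin E2, made downstream of Ptgs2, is needed for normal bone repair in rodents.

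Total counts per library lay between 13388689 and 18763270, and mitochondrially encoded genes took 4.16% (Gel 3) to 39.5% (ALN gel 1) of them. The share was 31.6% in Mg-ALN gel 3. ALN gel 1 was also the lowest library for Il1rn, Il6, Osm and Ptgs2. The common biological coefficient of variation was 51.4%. All 9 osteoblast and osteocyte markers examined had counts in every library, with Sost at only 3 and 2 counts in Mg-ALN gel 1 and 2. These are bulk samples, so fewer cells of a type and less RNA per cell cannot be told apart for any gene below. Levels are read counts scaled to library size by the TMM method (CPM), and a count of 3, taken as the floor, corresponds to 0.169 to 0.236 CPM. The floor covers counting error only. The osteoblast and osteocyte markers summed to only 271 CPM in Mg-ALN gel 2, against 939 to 7295 CPM in the other libraries. Bglap had 3.46 CPM there. Mg-ALN gel 2 was also the highest library for Ptgs2, Il11 and Lif, and the part of tissue content in this was not tested.

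Of the 10 genes, 9 passed the low-count filter and were tested with edgeR's quasi-likelihood test. At an adjusted p under 0.05, 0 of 9 passed for Mg-ALN gel against ALN gel, for ALN gel against Gel, for Mg-ALN gel against Gel, or in the joint test of the 3 groups. The background in all 4 was 0% of 15460 genes. A log2 fold change is positive where the group named first is higher. Il6, Ptgs2 and Osm were higher in each Mg-ALN gel library than in each ALN gel library, as were 6.76% of all genes tested. The interleukin-1 genes split the Gel and ALN gel groups internally, by up to 70.7-fold between libraries of 1 group.

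**Figure D1:**
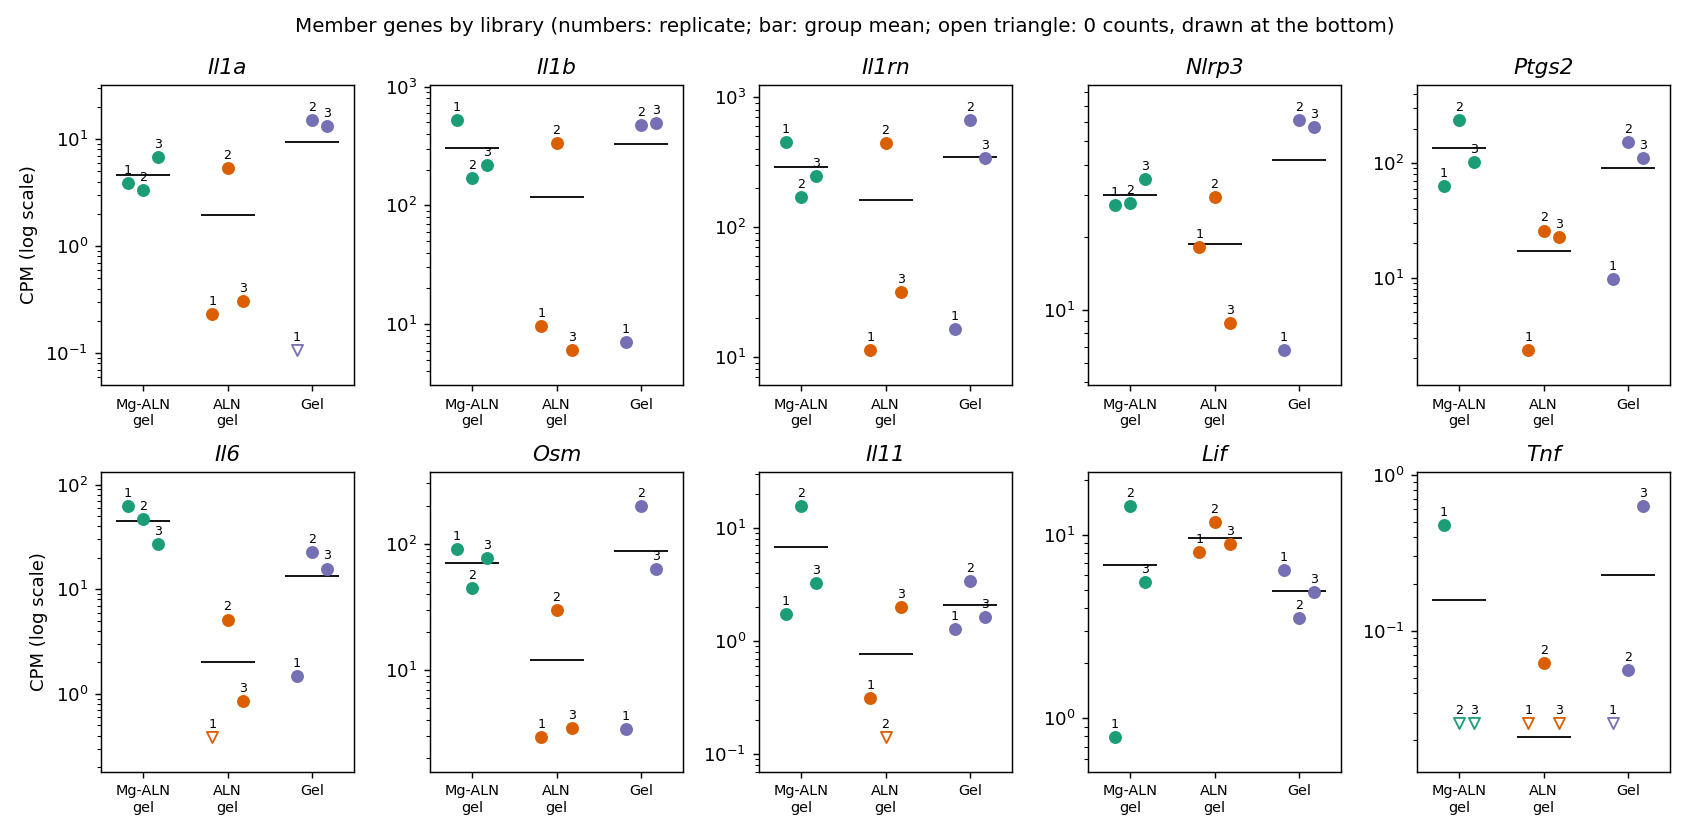
Level of each of the 10 genes in CPM (log scale) in the 9 libraries, with the group mean as a bar, the replicate number above each point and open triangles for 0 counts. Il6, Ptgs2 and Osm show no overlap between Mg-ALN gel and ALN gel, whereas for Il1b the libraries ALN gel 2, Gel 2 and Gel 3 lie among those of Mg-ALN gel and the other 3 lie below 10 CPM.

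Il1b, which encodes interleukin-1 beta (chromosome 3, 121876263 to 121882726, minus strand, in the build of the deposited table, which is not given in the sources used here), had 528, 170 and 218 CPM in Mg-ALN gel libraries 1 to 3. It had 9.62, 338 and 6.02 CPM in ALN gel, and 7.05, 478 and 498 CPM in Gel. Libraries ALN gel 1, ALN gel 3 and Gel 1 were thus low and the other 6 were high, and all 3 groups overlapped. The highest library exceeded the lowest 3.10-fold in Mg-ALN gel, 56.1-fold in ALN gel and 70.7-fold in Gel. Group means were 306 ± 194, 118 ± 190 and 328 ± 278 CPM in Mg-ALN gel, ALN gel and Gel (SD, n = 3 each). The log2 fold change was 1.38 (SE 1.58, adjusted p = 0.801) for Mg-ALN gel against ALN gel, beside −1.48 (SE 1.59, adjusted p = 0.862) for ALN gel against Gel. It was −0.10 (SE 1.55, adjusted p = 0.988) for Mg-ALN gel against Gel, and all 3 estimates lay within their standard error of 0. With 1 library left out, the first ranged from 0.72 (without Mg-ALN gel 1) to 5.34 (without ALN gel 2). The second ranged from −5.49 (without ALN gel 2) to −0.93 (without ALN gel 1). Over all alternatives run, the second lay between −5.49 and −0.11.

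The promoters of Il1b, Il6 and Il11 are shown because each stands for another pattern across the libraries and each holds a short element that was searched for. They run from 250 bases before to 50 bases after the start in RefSeq's assembly GRCr8, whose coordinates for these genes differ from those of the count table, and are written 5′ to 3′ on the gene's strand. Capitals mark TATAAA in Il1b, 2 overlapping matches to an NF-kB type motif (GGGA, any 3 bases, then TCC) on opposite strands in Il6, and the AP-1 motif TGANTCA in Il11.
Il1b (chr3:137036532-137036831, minus strand): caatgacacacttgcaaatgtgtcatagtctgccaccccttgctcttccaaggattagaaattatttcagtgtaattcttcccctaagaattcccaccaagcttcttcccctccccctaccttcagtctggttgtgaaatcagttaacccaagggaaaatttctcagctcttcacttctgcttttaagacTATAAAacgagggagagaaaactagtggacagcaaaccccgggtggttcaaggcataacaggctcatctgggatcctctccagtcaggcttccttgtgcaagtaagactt
Il6 (chr4:5894526-5894825, minus strand): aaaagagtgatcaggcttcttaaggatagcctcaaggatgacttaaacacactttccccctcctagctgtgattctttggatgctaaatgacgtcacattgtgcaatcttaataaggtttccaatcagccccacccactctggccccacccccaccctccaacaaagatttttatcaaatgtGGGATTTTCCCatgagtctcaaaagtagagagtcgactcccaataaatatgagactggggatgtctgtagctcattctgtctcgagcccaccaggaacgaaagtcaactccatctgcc
Il11 (chr1:78098372-78098671, plus strand): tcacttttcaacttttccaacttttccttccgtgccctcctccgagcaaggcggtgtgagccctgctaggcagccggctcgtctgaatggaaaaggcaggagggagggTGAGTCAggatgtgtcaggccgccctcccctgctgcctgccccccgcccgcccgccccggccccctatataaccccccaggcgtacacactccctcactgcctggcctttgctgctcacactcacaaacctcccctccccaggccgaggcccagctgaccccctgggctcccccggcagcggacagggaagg
Of the 10 genes, 8 had an entry in the RefSeq promoter table, and Lif and Osm had none. On either strand, the NF-kB type motif was in 1 of these 8 (Il6, from base −68) and in 4.09% of all 33469 promoters of this length. The AP-1 motif was in 2 (Il1a and Il11, where it starts at base −142) and in 7.33% of all promoters. The STAT motif TTCNNNGAA was in 1 (Nlrp3) and in 8.87% of all promoters. TATAAA was in 4 (Il1a, Il1b from base −60, Il1rn on the opposite strand, and Tnf) and in 14.2% of all promoters. A match describes these letters in this window and is not a measured site.

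Il1rn, which encodes the interleukin-1 receptor antagonist (chromosome 3, 1452644 to 1468614, plus strand), followed Il1b across libraries. It had 456, 170 and 247 CPM in Mg-ALN gel, 11.2, 445 and 31.7 CPM in ALN gel, and 16.2, 675 and 341 CPM in Gel. The same 3 libraries were low, and the log2 fold changes were 0.84 (SE 1.37), −1.08 (SE 1.37) and −0.24 (SE 1.36) in the 3 comparisons, in the order given for Il1b. Without ALN gel 2 the first was 3.82 and the second −4.11. Per length, in the authors' FPKM, the ratio of Il1rn to Il1b was 0.592, 0.681 and 0.774 in Mg-ALN gel. It was 0.795, 0.902 and 3.61 in ALN gel, and 1.58, 0.965 and 0.469 in Gel. Each ratio in Mg-ALN gel lay below each ratio in ALN gel, but only just (0.774 against 0.795), while those in Gel lay on both sides. The 0.795, in ALN gel 1, came from 144 counts of Il1rn and 124 of Il1b, so this gap is small beside counting error. The highest ratio, in ALN gel 3, came from 522 counts of Il1rn and 99 of Il1b.

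Il1a, which encodes interleukin-1 alpha (chromosome 3, 121825412 to 121836086, minus strand), lies 40176 bases from Il1b with no gene of the table between them. It was rarer, with 49, 56 and 107 counts in Mg-ALN gel, against 3, 85 and 5 in ALN gel and 0, 270 and 211 in Gel. The libraries low in Il1b were at or close to the floor, and the groups overlapped. The means were 4.67 ± 1.87, 1.96 ± 2.93 and 9.49 ± 8.28 CPM in Mg-ALN gel, ALN gel and Gel (SD, n = 3 each). The adjusted p-values were 0.816, 0.755 and 0.830 in the 3 pairwise comparisons.

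Nlrp3, the sensor of the inflammasome that activates interleukin-1 beta (chromosome 10, 45893018 to 45918254, plus strand), had a narrower range. It had 27.2, 27.6 and 34.7 CPM in Mg-ALN gel, 18.2, 29.3 and 8.75 CPM in ALN gel, and 6.76, 61.6 and 57.6 CPM in Gel. The Mg-ALN gel libraries agreed within 1.28-fold, against 3.35-fold in ALN gel and 9.11-fold in Gel. The log2 fold change was 0.67 (SE 0.70) for Mg-ALN gel against ALN gel, −1.16 (SE 0.70) for ALN gel against Gel and −0.49 (SE 0.69) for Mg-ALN gel against Gel, with adjusted p-values of 0.781, 0.711 and 0.823.

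Il6, which encodes interleukin-6 (chromosome 4, 3043231 to 3047807, plus strand), stood highest in Mg-ALN gel. It had 788, 786 and 431 counts in Mg-ALN gel, against 0, 82 and 14 in ALN gel and 21, 404 and 252 in Gel, which is 62.1, 46.8 and 27.4 CPM against 0, 5.15 and 0.851 CPM and 1.495, 22.8 and 15.8 CPM. Every Mg-ALN gel library exceeded the other 6, although the gap to Gel 2 was small. The means were 45.4 ± 17.4, 1.999 ± 2.76 and 13.4 ± 10.9 CPM in Mg-ALN gel, ALN gel and Gel (SD, n = 3 each). Between Mg-ALN gel and ALN gel the log2 fold change was 4.48 (SE 1.32), a 22.4-fold difference with an unadjusted p of 0.00776 and an adjusted p of 0.496 over all genes tested by edgeR. DESeq2, run as an alternative on all 9 libraries, called Il6 in this comparison with a log2 fold change of 4.52 and an adjusted p of 0.0225. By DESeq2, 0.356% of genes passed as higher in that comparison, and limma-voom with quality weights did not call Il6. Over all alternatives run, the log2 fold change of Il6 was between 3.92 and 6.69 and its adjusted p between 0.0225 and 0.730. It was −2.72 (SE 1.23, adjusted p = 0.618) for ALN gel against Gel and 1.76 (SE 1.16, adjusted p = 0.624) for Mg-ALN gel against Gel. Relative to Il1b, per length in FPKM, Il6 stood at 0.157, 0.367 and 0.168 in Mg-ALN gel, 0.0204 and 0.189 in ALN gel 2 and 3, and 0.283, 0.0637 and 0.0424 in Gel. In ALN gel 2, the library of its group rich in Il1b, Il6 was therefore low beside it, and the same held for Gel 2 and Gel 3.

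Ptgs2, the inducible cyclooxygenase that starts prostaglandin synthesis (chromosome 13, 67351087 to 67359335, plus strand), followed Il6 across the libraries, with a Pearson r of 0.926 over 9 libraries on the log2 CPM scale. It had 63.5, 240 and 102 CPM in Mg-ALN gel, 2.33, 25.9 and 22.9 CPM in ALN gel, and 9.68, 154 and 112 CPM in Gel. Every Mg-ALN gel library exceeded every ALN gel library, and the Gel libraries spanned both. Its log2 fold change between Mg-ALN gel and ALN gel was 2.99 (SE 1.08), a 7.92-fold difference with an unadjusted p of 0.0218 and an adjusted p of 0.496. Between ALN gel and Gel it was −2.43 (SE 1.06, unadjusted p = 0.0471, adjusted p = 0.604 by edgeR), with overlap through Gel 1. Between Mg-ALN gel and Gel it was 0.56 (SE 1.002, adjusted p = 0.866), and −0.20 without Mg-ALN gel 2.

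Osm encodes oncostatin M, a gp130 cytokine made by neutrophils and macrophages (chromosome 14, 84465515 to 84470409, plus strand). It had 91.3, 44.8 and 76.9 CPM in Mg-ALN gel, 2.95, 29.7 and 3.46 CPM in ALN gel, and 3.42, 198 and 62.6 CPM in Gel. Its low libraries were those low in Il1b, with which it correlated at r = 0.954 over 9 libraries. The log2 fold change was 2.56 (SE 1.26, adjusted p = 0.574) for Mg-ALN gel against ALN gel, −2.87 (SE 1.28, adjusted p = 0.610) for ALN gel against Gel and −0.31 (SE 1.19, adjusted p = 0.941) for Mg-ALN gel against Gel.

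Lif, which encodes leukaemia inhibitory factor (chromosome 14, 84482674 to 84500642, plus strand), lies 12264 bases from Osm on the same strand with no gene of the table between them, and did not share its pattern. It had 0.788, 14.3 and 5.53 CPM in Mg-ALN gel, 8.07, 11.7 and 8.87 CPM in ALN gel, and 6.41, 3.50 and 4.89 CPM in Gel. Every ALN gel library exceeded every Gel library, while the Mg-ALN gel libraries differed 18.1-fold and spanned both groups. The log2 fold change was −0.47 (SE 0.77, adjusted p = 0.869) for Mg-ALN gel against ALN gel, 0.96 (SE 0.78, adjusted p = 0.798) for ALN gel against Gel and 0.48 (SE 0.77, adjusted p = 0.846) for Mg-ALN gel against Gel. Per length in FPKM, the ratio of Osm to Lif was 93.3, 2.52 and 11.2 in Mg-ALN gel, against 0.294, 2.04 and 0.314 in ALN gel and 0.430, 45.5 and 10.3 in Gel. In ALN gel 1, ALN gel 3 and Gel 1 the ratio was below 1, and in the other 6 libraries Osm exceeded Lif.

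Il11, a gp130 cytokine known for its action on fibroblasts and osteoblasts (chromosome 1, 72635267 to 72643255, plus strand), was scarce. It had 22, 261 and 51 counts in Mg-ALN gel, against 4, 0 and 33 in ALN gel and 18, 60 and 26 in Gel. Mg-ALN gel 2 was the highest of the 9 libraries, and ALN gel 3 lay within the range of Mg-ALN gel. The means were 6.84 ± 7.58, 0.772 ± 1.08 and 2.10 ± 1.13 CPM in Mg-ALN gel, ALN gel and Gel (SD, n = 3 each). The log2 fold change was 3.12 (SE 1.32) for Mg-ALN gel against ALN gel, with an unadjusted p of 0.0426 and an adjusted p of 0.525 by edgeR. Leaving out 1 library at a time gave 1.73 to 5.48. It was −1.42 (SE 1.27, adjusted p = 0.825) for ALN gel against Gel and 1.70 (SE 1.24, adjusted p = 0.654) for Mg-ALN gel against Gel.

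Tnf, which encodes tumour necrosis factor (chromosome 20, 5189390 to 5192000, minus strand), was barely detected. It had 6, 0 and 0 counts in Mg-ALN gel, against 0, 1 and 0 in ALN gel and 0, 1 and 10 in Gel, a total of 18 with 5 libraries at 0. It failed the low-count filter and was left out of the main test. With no low-count filter, edgeR did not call it, with adjusted p-values of 0.739 for Mg-ALN gel against ALN gel, 0.797 for ALN gel against Gel and 0.956 for Mg-ALN gel against Gel, so a difference was not detectable at this depth. Tnf is the only ligand of the TNF family among the 10, so the values above concern the interleukin-1 and interleukin-6 families and Ptgs2.

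Ordered by median FPKM, which is per length, Mg-ALN gel had Il1b (152) and Il1rn (118) first, then Il6 (43.7), Osm (27.1) and Ptgs2 (22.6), then Nlrp3 (6.58), and then Il1a (3.05), Lif (2.42) and Il11 (1.87). Of neighbours in this order, the ranges over libraries did not overlap between Il1rn and Il6, Ptgs2 and Nlrp3, or Nlrp3 and Il1a, and overlapped between the others. Il11 reached 8.97 FPKM in Mg-ALN gel 2, so its range also covered that of Nlrp3. In ALN gel the median FPKM was 15.01 for Il1rn, 6.56 for Il1b, 5.04 for Ptgs2, 4.17 for Nlrp3 and 3.85 for Lif, and below 2 for Osm, Il6, Il1a and Il11. All neighbours in that order overlapped. In Gel the order was Il1b (344), Il1rn (168), Ptgs2 (25.6), Osm (22.7), Il6 (15.1), Nlrp3 (13.9), Il1a (10.4), Lif (2.2) and Il11 (0.965), with overlap between all neighbours. Il6 thus had rank 3 by median FPKM in Mg-ALN gel, rank 7 in ALN gel and rank 5 in Gel.

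In Mg-ALN gel against ALN gel, which sets the magnesium-containing material against the gel with ALN, 8 of the 9 tested genes had log2 fold changes above 0, all but Lif. Over all genes tested 46.4% were above 0. The median of the 9 was 1.38, against −0.04 over all genes tested. At an unadjusted p under 0.05 there were 3 (Il6, Ptgs2 and Il11), where 3.76% of all genes reached that level as higher. By DESeq2 1 of the 9 passed, where 0.356% of all genes did as higher, and by limma-voom 0. Il6, Osm and Ptgs2 did not overlap between these groups, with Mg-ALN gel above, which held for 6.76% of all genes. The median was 3.82 without ALN gel 2, the library of its group rich in interleukin-1, and 0.84 without ALN gel 3.

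In ALN gel against Gel, which asks what the bisphosphonate did, 8 of the 9 had log2 fold changes below 0, again all but Lif, and over all genes tested 50.2% were below 0. The median was −1.48, against 0 over all genes tested. Ptgs2 was the 1 gene at an unadjusted p under 0.05, where 2.42% of all genes reached that level as lower. DESeq2 called 0 of the 9, where it called 0.860% of all genes, and limma-voom called 0. For 0 of the 9 did each ALN gel library lie below each Gel library, which 5.03% of all genes did, and Lif lay above without overlap, as 11.1% did. The median was −4.11 without ALN gel 2.

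In Mg-ALN gel against Gel, 4 of the 9 were above 0 and 5 below, where 47.7% of all genes were above. The median was −0.10, against −0.03 over all genes tested. At an unadjusted p under 0.05 there were 0 of the 9, where 9.31% of all genes reached that level in either direction, and DESeq2 called 0, where it called 0.323% of all genes, as limma-voom called 0. Il6 was the 1 gene without overlap, with Mg-ALN gel above, as for 9.76% of all genes. The sign of the median turned with the mitochondrial share as covariate (1.31), with the replicate number as a block (1.06), without Gel 2 (0.66), without Gel 3 (0.28) and without Mg-ALN gel 3 (0.09). The 3 comparisons share samples, since each group enters 2 of them, so their values are not independent of each other. In the joint test of the 3 groups, Il6 had an unadjusted p of 0.0208 and an adjusted p of 0.526 by edgeR, and the other 8 had adjusted p-values of 0.540 to 0.896. Il6 was the 1 gene of the 9 at an unadjusted p under 0.05 there, as were 9.29% of all genes, and DESeq2 called 0 of the 9 jointly, where it called 1.60% of all genes.

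**Figure D2:**
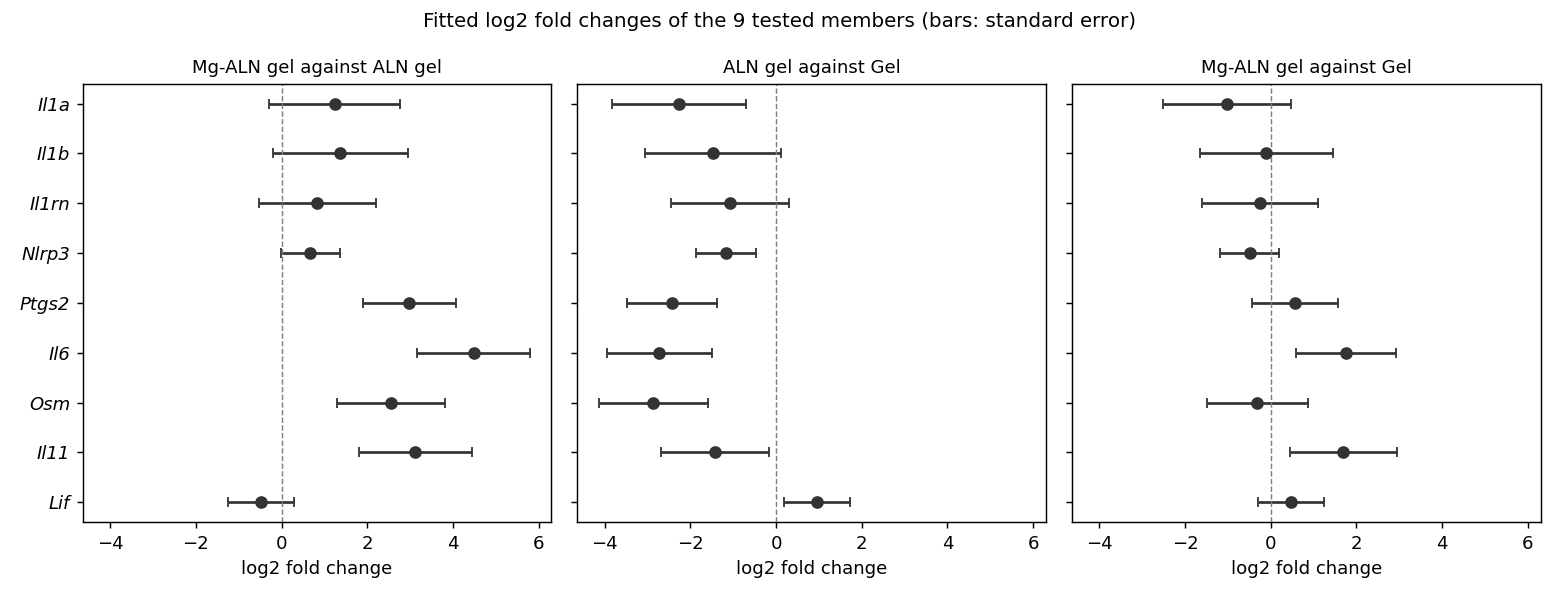
Fitted log2 fold change of the 9 tested genes in each comparison, with bars for the standard error. For Mg-ALN gel against ALN gel 8 of 9 points lie above 0, for ALN gel against Gel 8 of 9 lie below 0, and in the third panel they lie on both sides, and none passed the edgeR test.

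Across the 9 libraries, Il1a, Il1b, Il1rn, Osm and Nlrp3 varied together, as the heatmap of centred levels shows. On the log2 CPM scale r was 0.965 between Il1b and Il1rn, 0.928 between Il1b and Il1a and 0.945 between Il1a and Nlrp3. It was lower, at 0.827, between Il1rn and Nlrp3. Il6 and Ptgs2 went largely with these genes. For Il6, r was 0.81 with Il1b, 0.865 with Osm and 0.567 with Nlrp3. For Ptgs2 it was 0.759, 0.85 and 0.655. Lif (r = −0.398) and Il11 (r = 0.068) did not follow Il1b over the 9 libraries. Il11 in ALN gel 2, Il6 in ALN gel 1 and Il1a in Gel 1 had 0 counts. They entered at a log2 CPM of −4.94, which the prior count sets. The value for Il11 may rest largely on ALN gel 2, where Il1b was at 338 CPM, and r without that library was not computed. These are descriptions over 9 libraries that differ in depth and group. The mean of the 9 centred log2 CPM values was 1.0, 1.5 and 1.21 in Mg-ALN gel, against −2.91, 0.05 and −1.68 in ALN gel and −2.35, 1.84 and 1.35 in Gel. The Mg-ALN gel libraries lay close together, above every ALN gel library. Gel 1 lay below them, Gel 3 within their range and Gel 2 above it. How often other sets of genes separate these groups was not counted.

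**Figure D3:**
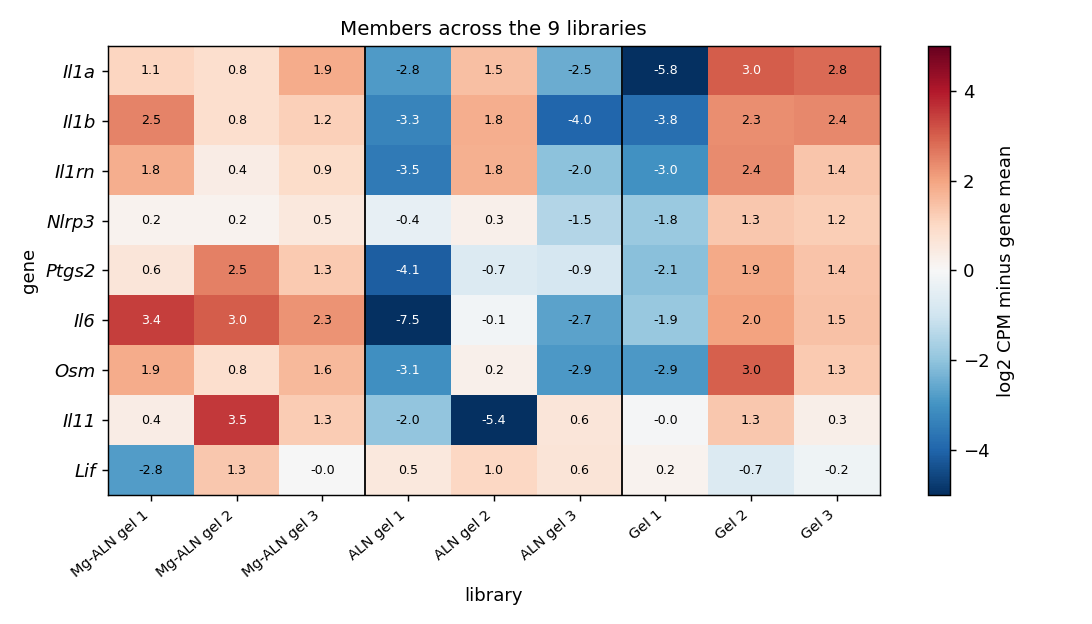
Log2 CPM of the 9 tested genes in each library minus the gene's mean over the 9 libraries, with a prior count of 0.5 and colours that end at 5 in both directions. ALN gel 1, ALN gel 3 and Gel 1 are blue for Il1a, Il1b, Il1rn and Osm, and the row of Lif does not follow the others.

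Among 12159 other protein-coding genes with a mean of at least 2 CPM, those most like the mean of the 9 were Csf3, the granulocyte growth factor G-CSF (r = 0.992 over 9 libraries), Lrg1, a secreted glycoprotein (0.978), Hif1a, the hypoxia-inducible transcription factor (0.977), Cxcl1, a chemokine for neutrophils (0.976), and Tarm1, a myeloid receptor (0.976). Csf3 had 4.10, 5.30 and 7.05 CPM in Mg-ALN gel, 0, 1.69 and 0.0608 CPM in ALN gel, and 0, 14.2 and 9.47 CPM in Gel. Cxcl1 had 71.2, 77.4 and 67.8 CPM in Mg-ALN gel, 1.71, 12.5 and 6.02 CPM in ALN gel, and 5.27, 99.9 and 51.0 CPM in Gel. Most like Il1b were AABR07021777.1, which the table describes as a low-affinity Fc gamma receptor (0.988), Tgm1, a transglutaminase (0.984), and Nek6, a mitotic kinase (0.983). They were picked as the highest of many and are a description.

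The 12 neutrophil markers summed to 1095 to 8649 CPM in Mg-ALN gel, 181 to 650 CPM in ALN gel and 184 to 1419 CPM in Gel. Ltf was at 0 in 8 of the 9 libraries, and Fpr1 was at 0 in ALN gel 1, ALN gel 3 and Gel 1. The sum was 594 CPM in ALN gel 1 and 650 CPM in ALN gel 2, where Il1b had 9.62 and 338 CPM. S100a8 and S100a9 made up most of it, with 159 and 234 CPM in ALN gel 1 and 132 and 213 CPM in ALN gel 2. The sum therefore mainly reflects these genes and not the list as a whole. The markers did not share 1 pattern, as the following examples, chosen after their values were seen, show. Csf3r, the G-CSF receptor of neutrophils, had 1779, 2792 and 2657 counts in Mg-ALN gel, against 45, 1490 and 58 in ALN gel and 45, 5288 and 4830 in Gel, with the same 3 low libraries as Il1b. Cxcr2, their chemokine receptor, had 151, 388 and 402 counts in Mg-ALN gel, against 2, 215 and 7 in ALN gel and 10, 802 and 767 in Gel. Granule genes of immature neutrophils differed from both. Mpo, myeloperoxidase, had 30.6, 0 and 83.0 CPM in Mg-ALN gel, 55.9, 20.3 and 12.3 CPM in ALN gel, and 14.5, 0.959 and 8.401 CPM in Gel. Elane, neutrophil elastase, had 14.4, 0.834 and 9.40 CPM in Mg-ALN gel, 17.6, 8.28 and 4.98 CPM in ALN gel, and 4.48, 3.216 and 3.01 CPM in Gel. Ngp and Camp were also higher in ALN gel 1 (25.4 and 32.04 CPM) than in Gel 2 (1.69 and 5.53 CPM), the reverse of Il1b. The sums of the 12 monocyte and macrophage markers overlapped, with 4468 to 25010 CPM in Mg-ALN gel, 3257 to 10010 CPM in ALN gel and 1928 to 10400 CPM in Gel. Marco was at 0 in all 9 libraries, and Lyz2 alone had 22210 CPM in Mg-ALN gel 1 and 7492 CPM in ALN gel 2. Of 11 tested, 8 were above 0 for Mg-ALN gel against ALN gel and 3 below. Csf1r had 371, 374 and 450 CPM in Mg-ALN gel, 689, 803 and 633 CPM in ALN gel, and 490, 459 and 376 CPM in Gel. Cd68 had 375, 274 and 337 CPM, 608, 591 and 454 CPM, and 354.5, 475 and 300 CPM in the same order. Both are among the markers below 0. Others ran differently, and Cd14 had 208, 112 and 127 CPM, 33.8, 167 and 56.3 CPM, and 26.3, 185 and 177 CPM in that order. Cd14, Fcgr1a, Mrc1 and Lyz2 were lowest in ALN gel 1, ALN gel 3 and Gel 1, the libraries low in Il1b. The other markers of this list were not. The 9 osteoclast markers summed highest in ALN gel, with 3651 to 12190 CPM in Mg-ALN gel, 21210 to 31000 CPM in ALN gel and 2141 to 17930 CPM in Gel. The 13 immediate early genes summed to 2123, 2340 and 1687 CPM in Mg-ALN gel, 599, 906 and 1339 CPM in ALN gel, and 868, 2054 and 2007 CPM in Gel. Between Mg-ALN gel and ALN gel all 13 of them had log2 fold changes above 0, with a median of 1.03, and none passed the edgeR test. The part of these markers in the levels of the cytokine genes was not tested.

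**Figure D4:**
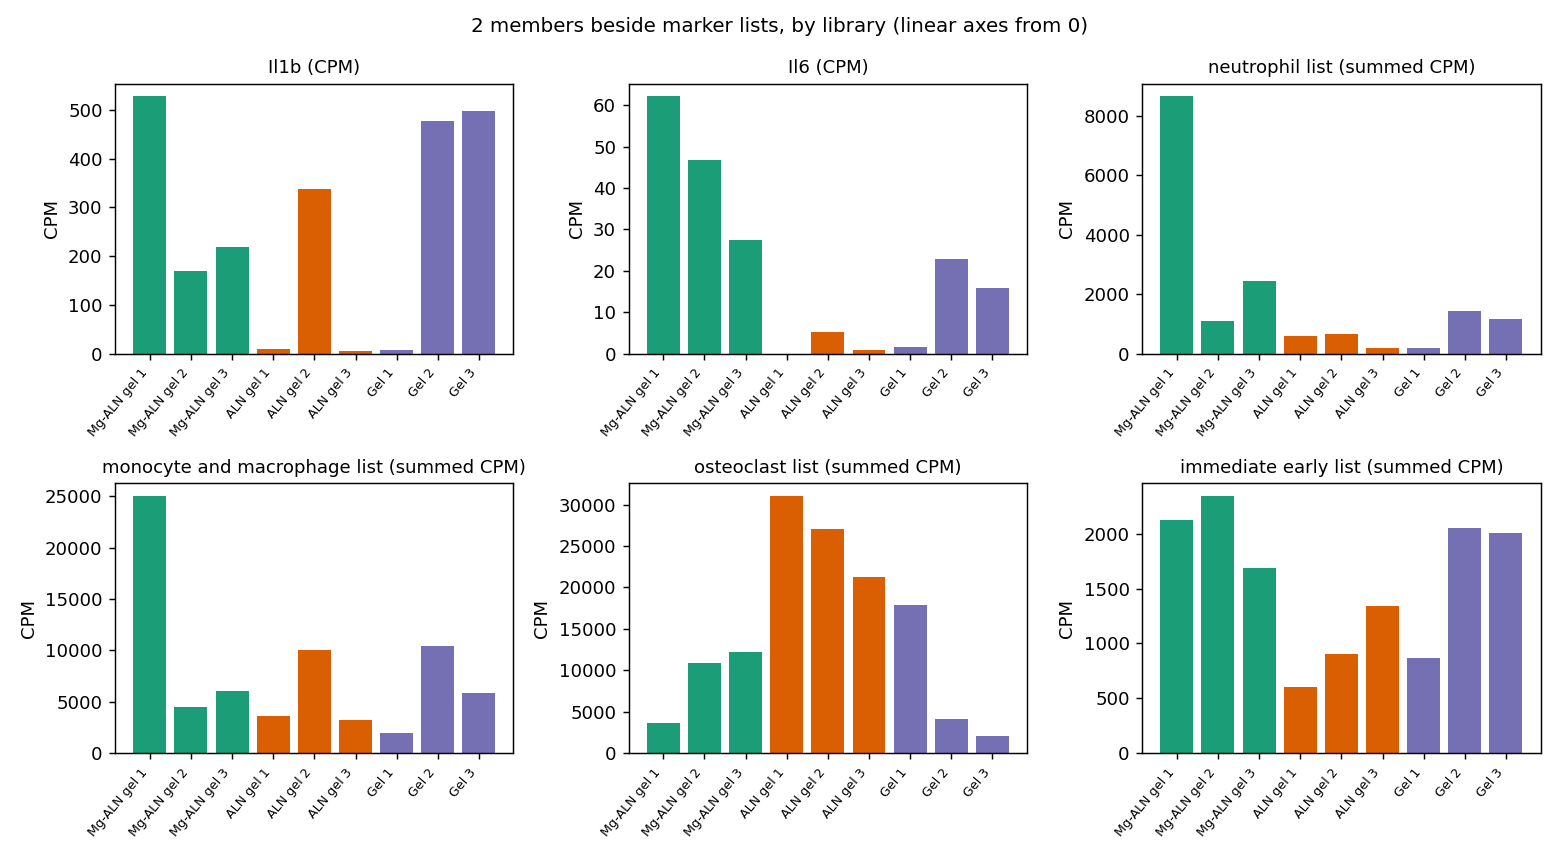
Il1b and Il6 in CPM beside the summed CPM of 4 marker lists, 1 bar per library on linear axes from 0. The low bars of Il1b in ALN gel 1, ALN gel 3 and Gel 1 fall on libraries with less than 600 CPM of neutrophil markers. ALN gel 2, with 338 CPM of Il1b, had 650 CPM of them, and S100a8 and S100a9 made up most of that sum. The 3 ALN gel libraries have the highest osteoclast sums.

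Other genes of these pathways were read from 6 lists, and in each list 0 genes passed the edgeR test in any of the 3 comparisons, against a background of 0%. The 2 genes picked per list had its smallest unadjusted p-values in these data, so a gap between groups comes partly from that choice. How many of all genes set 1 group apart from the other 6 libraries was not counted. Between 2 groups, 5.03% (ALN gel below Gel) to 11.1% (ALN gel above Gel) of all genes did not overlap in a given direction. Among all genes, 46.4% were above 0 for Mg-ALN gel against ALN gel and 47.7% for Mg-ALN gel against Gel. For ALN gel against Gel, 50.2% were below 0. At an unadjusted p under 0.05 by edgeR, Mg-ALN gel against ALN gel had 581 of all 15460 genes higher and 840 lower. The TNF family list had 3 higher and 2 lower there, and the NF-kB and STAT3 list 4 and 1. The inflammasome list had 1 and 1, and the interleukin-6 family and prostaglandin lists 1 and 0 each. Among 12 tested ligands and receptors of the interleukin-1 family, 11 were above 0 for Mg-ALN gel against ALN gel (median log2 fold change 1.14), 1 for ALN gel against Gel (−1.01) and 7 for Mg-ALN gel against Gel (0.06). At an unadjusted p under 0.05 there were 2 in the first of these, Sigirr and Il1rl1, both higher. Among all genes, 3.76% reached that level as higher there. Sigirr, an inhibitory receptor of the family, had 14.5, 19.1 and 16.3 CPM in Mg-ALN gel, 7.29, 8.72 and 9.72 CPM in ALN gel, and 10.8, 8.97 and 12.9 CPM in Gel, so that each Mg-ALN gel library lay above the other 6. Its log2 fold change for Mg-ALN gel against ALN gel was 0.95 (SE 0.26, adjusted p = 0.496). Il1rl1, the receptor of interleukin-33, had 29.8 ± 17.5, 11.3 ± 6.19 and 24.6 ± 7.50 CPM in Mg-ALN gel, ALN gel and Gel (SD, n = 3 each). In FPKM, the decoy receptor Il1r2 averaged 96.7 ± 82.0 in Mg-ALN gel, 17.0 ± 28.0 in ALN gel and 60.6 ± 60.1 in Gel, and the signalling receptor Il1r1 18.2 ± 8.88, 11.7 ± 10.7 and 34.2 ± 20.8 in the same groups (SD, n = 3 each). Il1r2 ranged from 40.4 to 190.8 FPKM in Mg-ALN gel, from 0.652 to 49.3 FPKM in ALN gel and from 0 to 120 FPKM in Gel, so that all groups overlapped.

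Of 10 tested genes of the interleukin-6 family, 8 were above 0 for Mg-ALN gel against ALN gel (median 0.69), 2 for ALN gel against Gel (−0.40) and 5 for Mg-ALN gel against Gel (0.04). Clcf1, a gp130 ligand, had 9.46, 9.23 and 9.27 CPM in Mg-ALN gel, 1.71, 3.70 and 4.86 CPM in ALN gel, and 1.78, 5.25 and 5.33 CPM in Gel. Each Mg-ALN gel library lay above the other 6, with log2 fold changes of 1.44 (SE 0.52, adjusted p = 0.496) against ALN gel and 1.18 (SE 0.52, adjusted p = 0.530) against Gel. Il11ra1, the receptor of interleukin-11, had 37.6 ± 30.9, 16.5 ± 5.02 and 18.3 ± 7.63 CPM in Mg-ALN gel, ALN gel and Gel (SD, n = 3 each), where Mg-ALN gel 1 alone reached 73.2 CPM. The gp130 subunit Il6st averaged 20.8 ± 12.6, 20.0 ± 13.8 and 35.6 ± 19.8 FPKM in these groups, with overlapping ranges.

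Of 16 tested genes of the TNF family, 12 were above 0 for Mg-ALN gel against ALN gel (median 0.67), 3 for ALN gel against Gel (−0.48) and 12 for Mg-ALN gel against Gel (0.38). Tnfrsf12a, the receptor of the ligand TWEAK, had 63.6, 78.0 and 52.1 CPM in Mg-ALN gel, 15.7, 21.9 and 35.9 CPM in ALN gel, and 25.2, 43.0 and 29.5 CPM in Gel. Each Mg-ALN gel library lay above the other 6, with a log2 fold change of 1.40 (SE 0.34, unadjusted p = 0.00263, adjusted p = 0.496 by edgeR) against ALN gel. Tnfrsf11a, the receptor RANK of osteoclast precursors, ran the other way, with 24.3, 31.5 and 46.5 CPM in Mg-ALN gel, 86.1, 95.9 and 71.5 CPM in ALN gel, and 50.8, 23.9 and 16.3 CPM in Gel. Every ALN gel library exceeded the other 6, and the log2 fold change was −1.31 (SE 0.41, adjusted p = 0.496) for Mg-ALN gel against ALN gel, beside 1.48 (SE 0.42, adjusted p = 0.528) for ALN gel against Gel. Although Tnf itself was barely detected, its receptor Tnfrsf1a averaged 97.5 ± 8.05, 58.7 ± 21.1 and 88.3 ± 26.7 FPKM in Mg-ALN gel, ALN gel and Gel (SD, n = 3 each).

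Of 11 tested prostaglandin genes, 7 were above 0 for Mg-ALN gel against ALN gel (median 0.17), 4 for ALN gel against Gel (−0.70) and 7 for Mg-ALN gel against Gel (0.16). Hpgd, the enzyme that degrades prostaglandins, had 10.1, 25.3 and 10.4 CPM in Mg-ALN gel, 1.01, 0.690 and 7.29 CPM in ALN gel, and 2.71, 9.37 and 8.65 CPM in Gel, with Mg-ALN gel above both groups in every library. Ptger4, a prostaglandin E2 receptor, had 7.17 ± 0.384, 6.77 ± 4.35 and 16.5 ± 2.14 CPM in Mg-ALN gel, ALN gel and Gel (SD, n = 3 each). Its log2 fold change was −1.28 (SE 0.52, adjusted p = 0.582) for ALN gel against Gel and −1.20 (SE 0.52, adjusted p = 0.530) for Mg-ALN gel against Gel.

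Of 11 inflammasome components, 9 were above 0 for Mg-ALN gel against ALN gel (median 0.18), 3 for ALN gel against Gel (−0.24) and 3 for Mg-ALN gel against Gel (−0.10). Txnip, a thioredoxin-binding protein that can bind Nlrp3, had 215 ± 4.83, 421 ± 108 and 249.8 ± 17.1 CPM in Mg-ALN gel, ALN gel and Gel (SD, n = 3 each). Every ALN gel library exceeded the other 6, with a log2 fold change of −0.97 (SE 0.23, adjusted p = 0.496) for Mg-ALN gel against ALN gel. Gsdmd, which forms the pore that releases interleukin-1, had 47.6 ± 12.3, 31.5 ± 4.57 and 32.1 ± 6.72 CPM in the same groups.

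Of 23 genes of NF-kB and STAT3 signalling and their feedback, 18 were above 0 for Mg-ALN gel against ALN gel (median 0.37), 3 for ALN gel against Gel (−0.60) and 6 for Mg-ALN gel against Gel (−0.21). Cebpd, a transcription factor induced by interleukin-6, had 249.6, 152.5 and 143 CPM in Mg-ALN gel, 39.6, 59.6 and 60.0 CPM in ALN gel, and 97.4, 280.0 and 124 CPM in Gel. Each ALN gel library lay below the other 6, with log2 fold changes of 1.78 (SE 0.43, adjusted p = 0.496) for Mg-ALN gel against ALN gel, beside −1.65 (SE 0.42, adjusted p = 0.528) for ALN gel against Gel. Traf6, the adaptor of interleukin-1 and RANK receptors, had the opposite order, with 5.14 ± 1.54, 13.5 ± 3.97 and 8.89 ± 0.287 CPM in Mg-ALN gel, ALN gel and Gel (SD, n = 3 each). Its log2 fold change was −1.39 (SE 0.35, adjusted p = 0.496) for Mg-ALN gel against ALN gel.

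**Figure D5:**
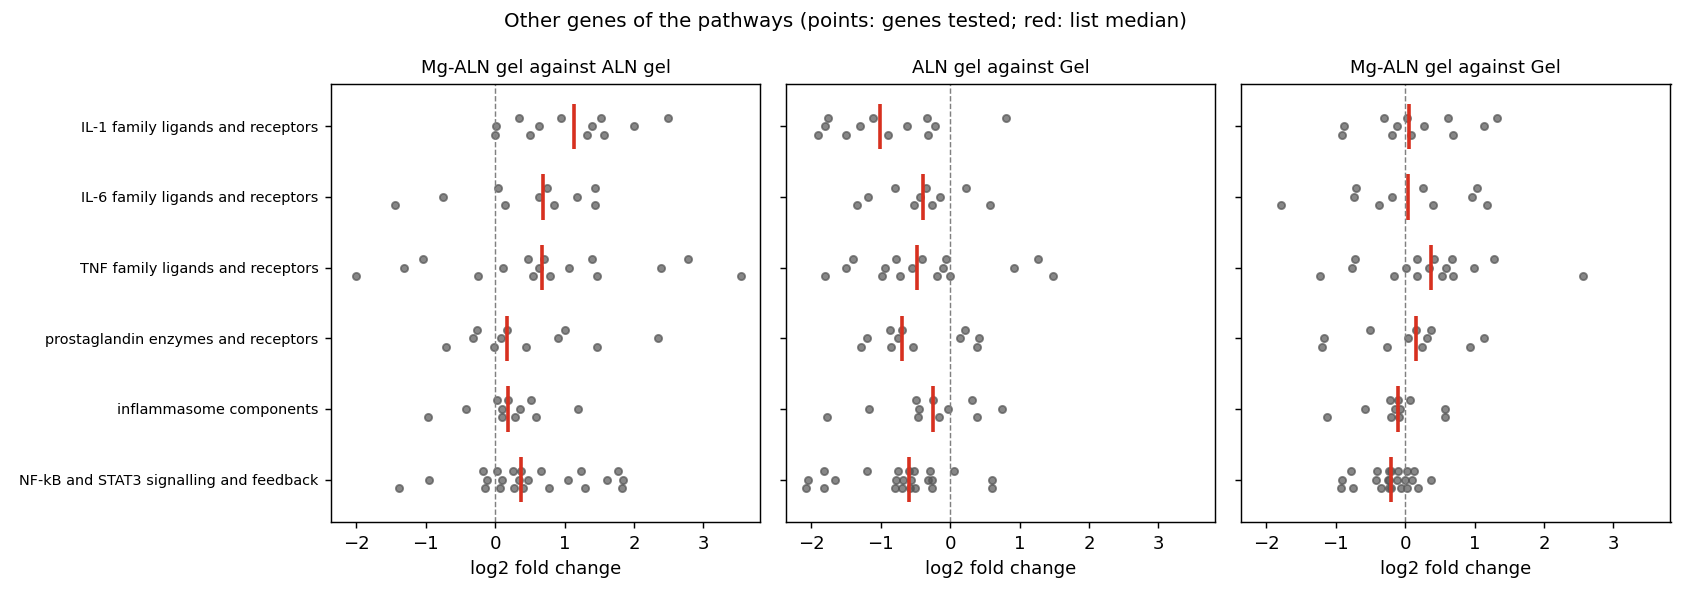
Log2 fold change of every tested gene of the 6 lists (points) with the list's median (red bar) in the 3 comparisons. The medians lie above 0 for Mg-ALN gel against ALN gel, below 0 for ALN gel against Gel and within 0.38 of 0 for Mg-ALN gel against Gel, and 0 of these genes passed the edgeR test.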

How the data were processed

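Poly-A RNA was purified with poly-T beads and cDNA primed with random hexamers, per the labels' protocols, which do not mention strand marking. None of the 10 genes overlaps another gene of the table. The authors deposited whole-number read counts per gene with no normalization, and FPKM values. The deposited FPKM were counts per gene length over a library constant, which corresponded to 0.804 to 1.19 times the library's total, so they already carry a scaling between libraries. The submitters' processing notes list, without roles, edgeR 3.22.5, DESeq2 1.20.0, featureCounts 1.5.0-p3, StringTie 1.3.3b, HISAT2 2.0.5 and fastp. The genome build is not given in the sources used here.

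Groups and replicate numbers came from the titles. In R 4.3.3, edgeR 4.0.16 filtered genes by filterByExpr with default settings (15460 of 35360 genes kept), scaled by TMM and fitted all 9 libraries with 1 coefficient per group. P-values were two-sided quasi-likelihood tests with Benjamini-Hochberg adjustment over all genes tested within each comparison, at a threshold of 0.05. DESeq2 1.42.0 and limma 3.58.1 were alternatives, the second as limma-voom with sample quality weights. The fit was also run on simulated counts with a spread shared by all genes. Its recovery at the spread of these data is not reported here, so that run says nothing about power for these genes. Standard errors came from the log2 fold change and the F statistic, as their size over the root of F. Log2 CPM used a prior count of 0.5. The genes, lists and tests were chosen with earlier results of these data known. All 10 genes are named in every comparison. Of each pathway list, the 2 genes with the smallest unadjusted p in any pairwise comparison are named, and the genes most like the 10 were ranked by Pearson r. Receptors and marker genes named beside these were chosen for their role after values were seen. Of 196 list entries 192 matched, 191 by symbol and 1 through the RefSeq gene table (GRCr8).

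Between any pair of libraries chi-square per degree of freedom was at least 72.3, so no pair was taken as a repeat of the same library. All 9 were used as replicates, although this check cannot show whether they come from separate animals. Libraries of the same number deviated together between ALN gel and Gel (r = 0.341, 0.419 and 0.226 across genes). Between Mg-ALN gel and ALN gel r was 0.130, −0.120 and −0.127, and between Mg-ALN gel and Gel −0.0767, −0.0452 and −0.199. The labels do not say what a number marks, so this pairing comes from the data alone.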

Additional observations from a re-analysis of the deposited data

How the results depend on the processing

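The number of the 9 genes called (10 with no low-count filter) was 0 in every comparison and under every alternative, except that DESeq2 called 1 (Il6) in Mg-ALN gel against ALN gel. Over all genes, edgeR called 0 in each comparison, DESeq2 175, 133, 50 and, jointly, 247, and limma-voom 2, 263, 0 and 28, in the order Mg-ALN gel against ALN gel, ALN gel against Gel, then Mg-ALN gel against Gel and joint. With 1 library left out, 0 of the 9 were called in each of 9 fits. The cause of these differences was not tested. The median log2 fold change of the 9 ranged over those fits from 0.83 to 3.82 in Mg-ALN gel against ALN gel (3.82 without ALN gel 2), from −4.11 to −1.14 in ALN gel against Gel (−4.11 without ALN gel 2) and from −0.68 to 0.66 in Mg-ALN gel against Gel. With the replicate number as a block the medians were 2.96, −2.33 and 1.06, with the sign turned in the last, and the block changed no call. The block in a fit of ALN gel and Gel alone, chosen after seeing the data, gave −2.16. Under the mitochondrial covariate the median in Mg-ALN gel against Gel was 1.31, and without Gel 2, Gel 3 or Mg-ALN gel 3 it was 0.66, 0.28 and 0.09.

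Single genes that changed sign did so chiefly in Mg-ALN gel against Gel. There, under the block, Il1a was 0.24, Il1b 1.06, Il1rn 1.26 and Osm 0.98, and under the mitochondrial covariate Il1b was 1.52, Il1rn 1.31 and Osm 0.54. With 1 library left out, the ranges were −0.75 to 0.28 for Il1b, −0.81 to 0.66 for Il1rn, −0.88 to 1.06 for Osm, −0.66 to 1.01 for Lif and −0.20 to 1.10 for Ptgs2. In the other comparisons Lif ranged from −1.56 to 0.05 in Mg-ALN gel against ALN gel with 1 library left out, and Il1rn was 0.09 in ALN gel against Gel under the mitochondrial covariate. Depth limits Tnf, Il11 and Il1a most, at 18, 475 and 786 counts in all.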
